A study of Mus musculus with 24 samples.

Results

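The clustered protocadherins are the genes of the Pcdha, Pcdhb and Pcdhg arrays, and they were taken as every entry of the expression table whose symbol starts with Pcdha, Pcdhb or Pcdhg followed by further characters. The rule found 57 of 23881 entries, of which 13 lie in the alpha cluster, 22 in the beta cluster and 22 in the gamma cluster. Messenger RNA of mouse visual cortex was sequenced to ask how the transcriptome changes while visual function matures and how the loss of the microRNAs miR-132 and miR-212 affects it. The groups were P28-KO (postnatal day 28, germ-line deletion of miR-132/212 in every tissue), P28-wt (postnatal day 28, wild type) and P10-wt (postnatal day 10, wild type), with 4 libraries each. All mice had the C57BL6J background, both sexes were used, rearing was in a normal light cycle, and wild-type animals were littermates. There was no P10-KO group, so the effect of the deletion was measured at 1 age only.

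Clustered protocadherins are cell-surface adhesion proteins of neurons. Each neuron uses its own small set of them, and the proteins bind only to matching partners on other membranes, which lets a neuron tell its own branches from those of other cells. In the alpha and gamma clusters each gene has a first exon of its own, called the variable exon, which carries the extracellular and transmembrane parts and is spliced to 3 constant exons shared by the whole cluster. Beta genes have a single exon and no shared part. Most alpha, beta and gamma isoforms (called alternate isoforms here) are chosen promoter by promoter in individual neurons with the help of CTCF, cohesin and DNA methylation. The 5 C-type isoforms at the ends of the alpha and gamma clusters are regulated differently and are expressed more uniformly among neurons.

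By subgroup there were 11 alternate alpha, 22 beta, 12 gamma A, 7 gamma B and 5 C-type entries. All lie on the plus strand of chromosome 18 in mm10, with the alpha cluster from 36930285 to 37187663, the beta cluster from 37264998 to 37521419 and the gamma cluster from 37661945 to 37841873, by the listed starts and the RefSeq ends. The alpha end leaves out Pcdha6-g and Pcdha7-g, whose RefSeq models run to 37841873, the end of the gamma cluster. Levels are RPKM, reads scaled to the length of the listed model and to the mapped reads of the library. They are corrected for length between genes, but entries that cover different parts of their transcripts compare less directly. The span listed for 31 of the 35 alpha and gamma entries stops at the end of the variable exon, and 2109 to 2866 bases of their RefSeq messenger RNA, the constant exons, lie 3′ of it. The span of 21 of the 22 beta entries reaches the 3′ end of the transcript to within 1 base. Pcdha2 is listed with a span that runs over the constant exons, and the entries Pcdha6-g and Pcdha7-g have spans of only 125 and 122 bases. A level of an alpha or gamma entry was therefore read mainly as the level of its variable exon, and of a beta entry as that of its whole transcript. Whether the level of Pcdha2 counts reads in the constant exons was not tested. Its mean was 3.60 RPKM in P10-wt, where the alpha entries summed to 58.3 RPKM. Pcdha2 is still counted among the alternate alpha isoforms.

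The filter on low values was a mean of at least 0.5 RPKM over the 12 libraries, and 54 of the 57 members passed it. The 3 below it were Pcdhgb8 (mean 0.443 RPKM), which RefSeq lists as a transcribed pseudogene, Pcdha8 (0.190 RPKM) and Pcdhb1 (0.0191 RPKM). Pcdhb1 was listed at 0 in 6 of the 12 libraries, among them all 4 P28-wt libraries. The member just above the filter was Pcdhb6, with a mean of 0.587 RPKM.

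The deleted locus was checked first. Mir132 was listed at 0 RPKM in all 4 P28-KO libraries, against 14.4, 9.74, 13.1 and 11.2 RPKM in P28-wt and 0.144, 0.130, 0.980 and 1.19 RPKM in P10-wt. Mir212 was likewise listed at 0 in all 4 P28-KO libraries, against 14.0 to 24.7 RPKM in P28-wt. These were the only 2 genes of 13927 called between P28-KO and P28-wt by limma at an adjusted p under 0.05. A regularized test, described below, called 651 of the same genes higher and 966 lower in P28-KO. The number of genes called therefore depended on the test and its threshold. The study used a test of its own and reports a longer list of genes for the same comparison. Summed RPKM over all entries was 256643 to 274763 in P28-KO, 265427 to 293066 in P28-wt and 265014 to 269601 in P10-wt libraries. Neuronal markers fitted the labelled tissue, since Slc17a7, the vesicular glutamate transporter of cortical excitatory neurons, had 569 to 672 RPKM in P28-KO, 651 to 785 RPKM in P28-wt and 160 to 310 RPKM in P10-wt libraries. The table holds no read counts per entry, and the counting error of a level was not computed. The study describes the libraries of a group as separate mice, and whether a library pools animals is not stated in the sources used here.

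Between P10 and P28, of the 54 members tested, 40 fell, 1 rose and 13 did not pass (limma, Benjamini-Hochberg adjusted p below 0.05). The background was high, since 31.2% of all 13927 genes fell and 26.7% rose in the same comparison. The median log2 fold change, P28-wt over P10-wt on the log2(RPKM + 0.1) scale, was -0.96 over the members and -0.05 over all genes tested. The one member that rose was Pcdhgc5. Every P28-wt library lay below every P10-wt library for 37 members, against 29.7% of all genes tested, and above every P10-wt library for Pcdhgc5 alone, against 24.9% of all genes tested.

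**Figure D1:**
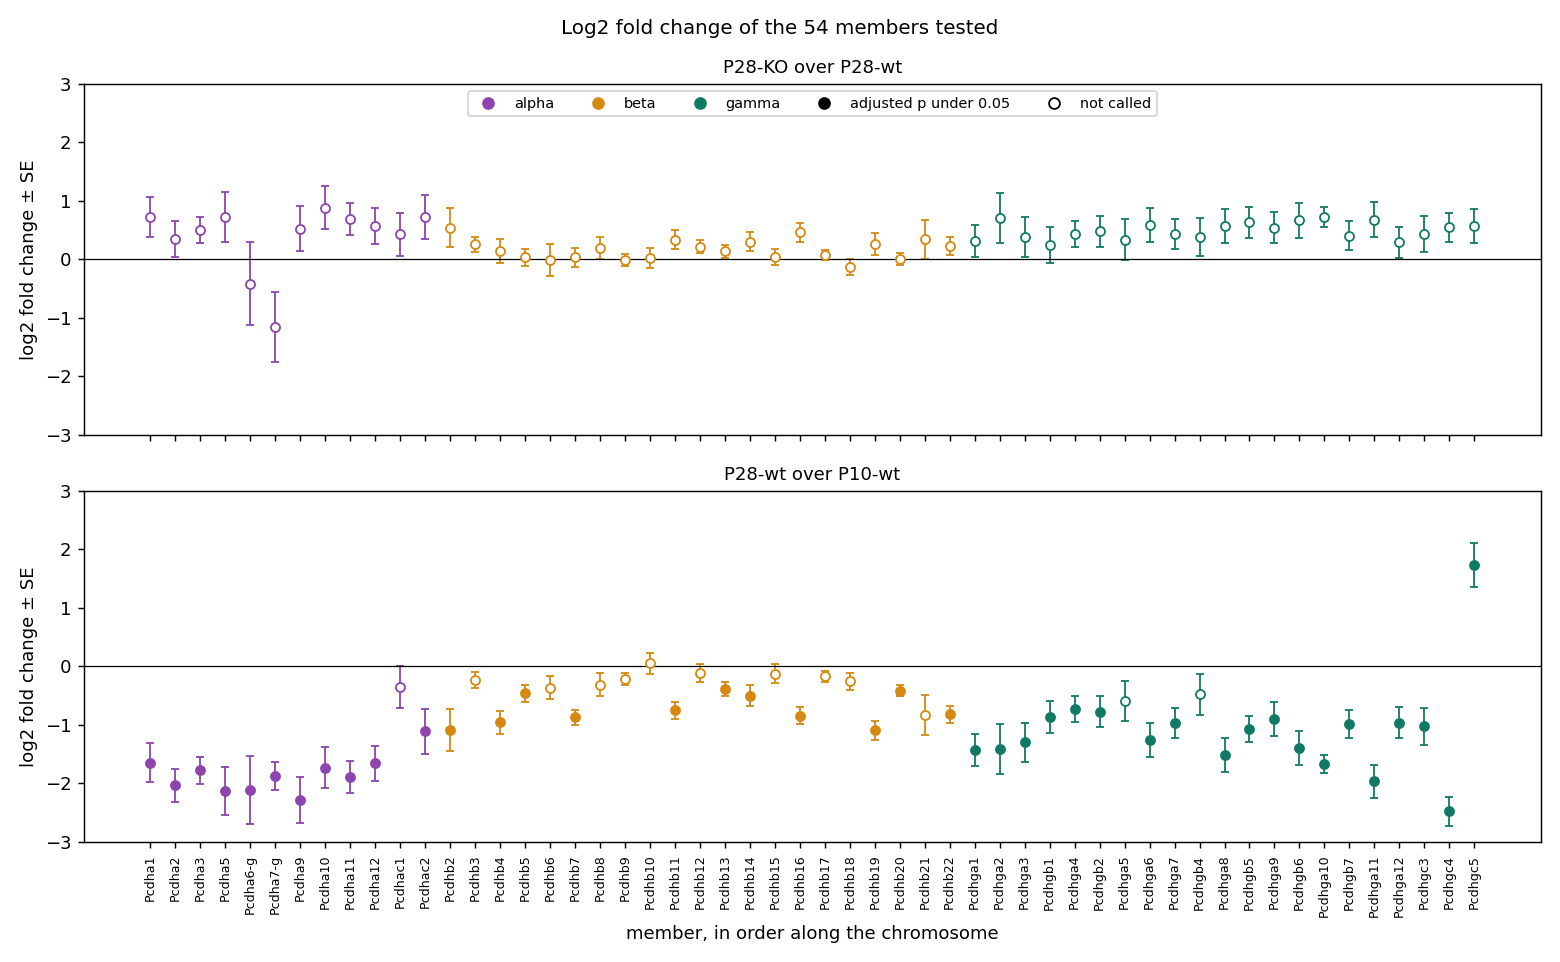
Log2 fold change ± SE (limma, log2(RPKM + 0.1) scale) of the 54 members tested, in order along chromosome 18, with P28-KO over P28-wt above and P28-wt over P10-wt below. Filled points passed an adjusted p under 0.05. In the lower panel 40 members fell, Pcdhgc5 alone rose, and the beta members lie nearer to 0 than the alternate alpha members, while in the upper panel no member was called.

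The alternate alpha isoforms changed most evenly with age. All 10 of those tested fell, among them Pcdha6-g (-2.11) and Pcdha7-g (-1.87), whose models end with the gamma cluster. Their log2 fold changes as a group of 10 ran from -2.29 to -1.64 with a median of -1.88. Their summed level was 13.9, 4.18, 10.9 and 13.9 RPKM in P28-wt libraries (mean 10.7 ± 4.60, SD, n = 4), against 39.8, 37.6, 40.0 and 38.5 RPKM in P10-wt libraries (39.0 ± 1.14). The 4 P28-wt sums all lay below the 4 P10-wt sums, and the ratio of the means was 0.276.

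P28-wt replicate 2 stood apart from the other P28-wt libraries. It had the lowest value of the 8 P28 libraries in 31 of the 33 alpha and gamma members tested, but in only 8 of the 21 beta members. In that library the median log2 deviation from the median of the 8 P28 libraries was -1.41 over the alpha and gamma members, -0.12 over the beta members and 0.03 over the 13873 other genes tested. P28-wt replicate 3 deviated the same way to a lesser degree, by -0.40 over the alpha and gamma members, -0.14 over the beta members and 0.02 over the other genes, whereas the other 6 libraries lay between -0.09 and 0.17 over the alpha and gamma members. The same 2 libraries also ran low in long transcripts, by -0.17 in replicate 2 and -0.11 in replicate 3 over the 1709 other genes with transcripts over 6000 bases. They ran high in short ones, by 0.23 and 0.11 over the 3672 other genes with transcripts of up to 2000 bases. P28-KO replicates 3 and 4 deviated the other way, by 0.075 and 0.098 in the long transcripts and by -0.109 and -0.112 in the short ones. Over the alpha and gamma members these 2 P28-KO libraries lay at 0.145 and 0.172. Over the 619 other genes with 1000 or more bases of messenger RNA 3′ of the listed span, replicate 2 deviated by -0.26 and replicate 3 by -0.07. A wide P28-wt range was also seen outside the clusters. The 10 solitary delta protocadherins, listed further below, summed to 70.8 to 113 RPKM in P28-wt and 108 to 123 RPKM in P28-KO libraries. The part of these differences in the results was not tested. The main results for the members are also given without P28-wt replicate 2.

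**Figure D2:**
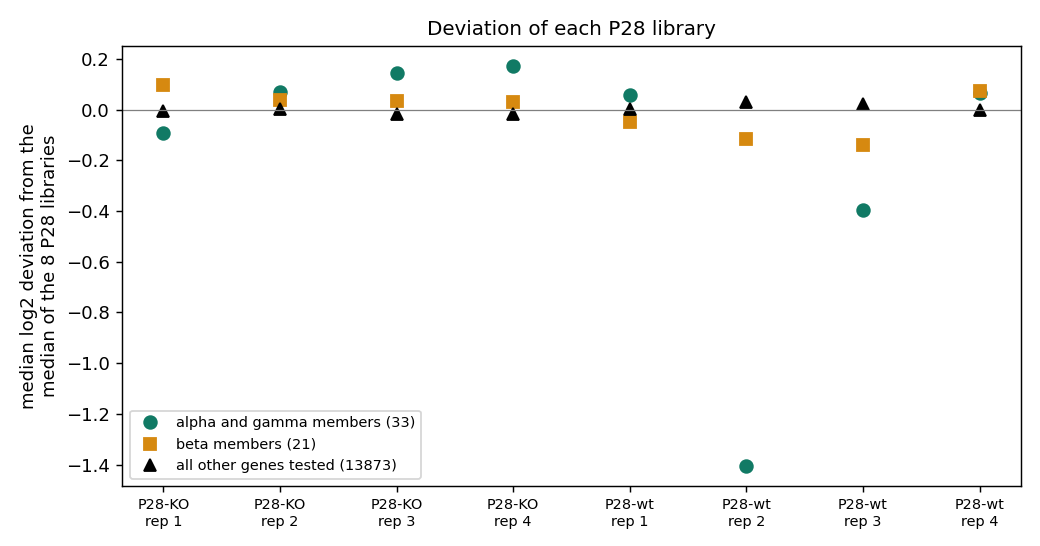
Median log2 deviation of each P28 library from the median of the 8 P28 libraries, for the 33 alpha and gamma members (circles), the 21 beta members (squares) and the 13873 other genes tested (triangles). P28-wt replicate 2 sits at -1.41 for the alpha and gamma members and at -0.12 for the beta members.

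Without P28-wt replicate 2, 37 members fell and 1 rose, against 33% of all genes falling and 26.5% rising. All 10 alternate alpha isoforms still fell, with a median of -1.58, and the ratio of their summed levels was 0.332. Without both replicates 2 and 3, which leaves 2 P28-wt libraries, 34 members fell and 1 rose, against 31% of all genes falling and 23% rising, and the 10 alternate alpha isoforms fell with a median of -1.44.

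Pcdha9 had the largest alternate alpha decrease. It measured 1.49, 0.356, 1.50 and 1.95 RPKM in P28-wt libraries and 6.32, 5.43, 6.55 and 5.59 RPKM in P10-wt libraries (log2 fold change -2.29, SE 0.39, limma adjusted p = 0.000593). Every P28-wt library lay below every P10-wt library, and the log2 fold change was -1.80 without P28-wt replicate 2. Pcdha5 followed at 1.91, 0.339, 1.26 and 1.97 RPKM in P28-wt libraries, against 5.13, 5.46, 5.09 and 5.84 RPKM in P10-wt libraries (-2.12, SE 0.41, limma adjusted p = 0.00137). Its groups did not overlap either, and the value was -1.62 without P28-wt replicate 2. Pcdha6-g, whose level rests on a span of 125 bases, was listed at 0.479, 0, 0.761 and 0.255 RPKM in P28-wt libraries and at 1.80, 1.96, 0.820 and 1.62 RPKM in P10-wt libraries (-2.11, SE 0.58, limma adjusted p = 0.00956). The size for Pcdha6-g depends on the pseudocount, being -3.06 at 0.01 and -0.90 at 1, and it was -1.49 without P28-wt replicate 2, the library listed at 0.

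Pcdha12, the most abundant alternate alpha isoform, lies nearest to the C-type exons. It measured 2.96, 1.01, 2.84 and 3.24 RPKM in P28-wt libraries, against 7.66, 7.32, 7.50 and 7.41 RPKM in P10-wt libraries (log2 fold change -1.66, SE 0.30, limma adjusted p = 0.000824). The P10-wt values of Pcdha12 were close together, and the P28-wt spread came mostly from replicate 2, without which the value was -1.28. Position in the array gave no order to the decreases, with a Spearman correlation of 0.02 between place along the chromosome and log2 fold change over the 10 isoforms, all measured in the same libraries.

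The beta isoforms, which have no constant exons and rely on their own transcript, changed less and less evenly. Of the 21 tested, 11 fell and 10 were not called, and none rose. Their log2 fold changes ran from -1.09 to 0.05 with a median of -0.42. Their summed level was 38.3, 35.3, 36.0 and 40.7 RPKM in P28-wt libraries (mean 37.6 ± 2.46, SD, n = 4), against 48.8, 53.2, 55.0 and 49.9 RPKM in P10-wt libraries (51.7 ± 2.86), a ratio of 0.726. The P28-wt sums all lay below the P10-wt sums, and P28-wt replicate 2 was close to the others. Without that library 9 of the 21 fell and the median was -0.41, and without replicates 2 and 3, where 31% of all genes fell, 8 of the 21 fell with a median of -0.32. A regularized test modelled on the one the study used, at a posterior probability above 0.6, had 17 beta members falling, beside 39.4% of all genes falling and 34% rising.

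Pcdhb19 and Pcdhb4 were among the beta isoforms with the largest decreases. Pcdhb19 measured 1.04, 0.732, 1.08 and 1.17 RPKM in P28-wt libraries, against 2.14, 2.08, 2.66 and 2.07 RPKM in P10-wt libraries (log2 fold change -1.09, SE 0.16, limma adjusted p = 0.000277). Pcdhb4 measured 0.473, 0.814, 0.596 and 0.614 RPKM in P28-wt libraries, against 1.63, 1.29, 1.27 and 1.01 RPKM in P10-wt libraries (-0.96, SE 0.20, limma adjusted p = 0.00212). In neither gene did the groups overlap, and Pcdhb4 kept a log2 fold change of -1.07 without P28-wt replicate 2, where it had its highest P28-wt value.

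Pcdhb2 was called at a log2 fold change of -1.09 (SE 0.36, limma adjusted p = 0.0257), but its groups overlapped. It had 0.927, 0.251, 0.458 and 0.893 RPKM in P28-wt libraries and 0.814, 1.50, 1.91 and 1.28 RPKM in P10-wt libraries. The call was lost without P28-wt replicate 2 (-0.78, limma adjusted p = 0.0520), P28-wt replicate 3, or P10-wt replicate 2, 3 or 4.

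The most abundant beta isoform, Pcdhb17, was among the 10 that were not called. Its levels were 5.03, 5.08, 5.45 and 5.90 RPKM in P28-wt libraries and 5.56, 6.75, 6.18 and 5.67 RPKM in P10-wt libraries (log2 fold change -0.17, SE 0.10, limma adjusted p = 0.156). The groups overlapped. The other beta members not called were Pcdhb3, Pcdhb6, Pcdhb8, Pcdhb9, Pcdhb10, Pcdhb12, Pcdhb15, Pcdhb18 and Pcdhb21. Their log2 fold changes lay between -0.83 for Pcdhb21 and 0.05 for Pcdhb10. Place along the array again gave no order (Spearman correlation -0.01 over the 21 tested).

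**Figure D3:**
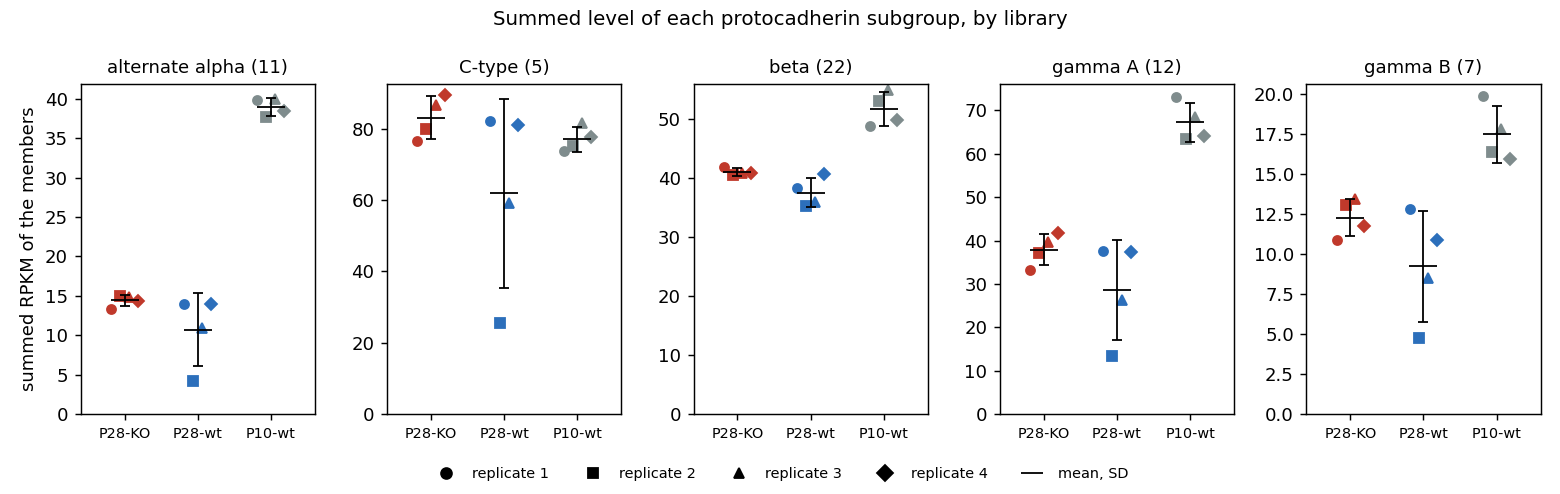
Summed RPKM of the members of each subgroup in every library (points, marker by replicate), with the mean and SD of the 4 libraries of a group, for P28-KO, P28-wt and P10-wt. The mean alternate alpha sum is 10.7 RPKM in P28-wt and 39.0 RPKM in P10-wt, the mean beta sum is 37.6 RPKM in P28-wt and 51.7 RPKM in P10-wt, and P28-wt replicate 2 lies far below the other P28 libraries in every panel except beta.

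The gamma A and gamma B isoforms lay between the alternate alpha and the beta isoforms. Of 12 gamma A members 11 fell, with a median log2 fold change of -1.28, and of 6 gamma B members tested 5 fell, with a median of -0.93. Summed gamma A was 37.6, 13.4, 26.4 and 37.3 RPKM in P28-wt libraries (mean 28.7 ± 11.4, SD, n = 4), against 73.2, 63.4, 68.4 and 64.1 RPKM in P10-wt libraries (67.3 ± 4.53). The groups did not overlap, and the ratio of the means was 0.426, or 0.502 without P28-wt replicate 2. Summed gamma B was 12.8, 4.75, 8.50 and 10.9 RPKM in P28-wt libraries (9.23 ± 3.47), against 19.9, 16.3, 17.8 and 15.9 RPKM in P10-wt libraries (17.5 ± 1.79). Without P28-wt replicate 2, 10 gamma A members fell with a median of -0.89 and 5 gamma B members with a median of -0.69. Without replicates 2 and 3, 10 gamma A and 3 gamma B members fell, with medians of -0.72 and -0.45.

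Pcdhga11 had the highest mean over the 12 libraries of the gamma A isoforms and the most negative fold change of them. It measured 5.92, 1.87, 3.55 and 5.05 RPKM in P28-wt libraries, against 16.6, 14.7, 14.0 and 14.8 RPKM in P10-wt libraries (log2 fold change -1.97, SE 0.28, limma adjusted p = 0.000209, and -1.64 without P28-wt replicate 2). The groups stood well apart, and Pcdhga11 made up 14.2% ± 1.07 of the summed gamma A level in P28-wt and 22.4% ± 1.29 in P10-wt (SD, n = 4 each). Pcdhga10 had 1.32, 0.963, 1.30 and 1.59 RPKM in P28-wt libraries and 4.67, 3.88, 4.44 and 4.07 RPKM in P10-wt libraries (-1.67, SE 0.15, limma adjusted p = 9.01e-06, and -1.54 without P28-wt replicate 2). P28-wt replicate 2 was its lowest library but lay near the others, and the groups stood apart. Pcdhga8 fell by 1.51 on the log2 scale (SE 0.28, limma adjusted p = 0.00109), and by 1.18 without P28-wt replicate 2.

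Pcdhgb6, the most abundant gamma B isoform, had 3.07, 0.909, 2.20 and 2.04 RPKM in P28-wt libraries, against 6.17, 4.57, 5.51 and 4.54 RPKM in P10-wt libraries (log2 fold change -1.40, SE 0.29, limma adjusted p = 0.00213). Every P28-wt library was below every P10-wt library, and the value was -1.07 without P28-wt replicate 2. Pcdhgb5 (-1.07, SE 0.21, limma adjusted p = 0.00167) and Pcdhgb7 (-0.99, SE 0.24, limma adjusted p = 0.00501) fell by less. Pcdhga9, which had the lowest mean of the gamma A isoforms over the 12 libraries, was called at -0.90 (SE 0.29, limma adjusted p = 0.0214), but its groups overlapped at 2.26 RPKM in P28-wt replicate 1 and 2.03 RPKM in P10-wt replicate 3. That call was lost without P28-wt replicate 2 (limma adjusted p = 0.0532), P28-wt replicate 3 or P10-wt replicate 1.

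The C-type isoforms went apart with age. Pcdhgc5, the last gamma isoform, rose, Pcdhgc4, Pcdhgc3 and Pcdhac2 fell, and Pcdhac1 was not called. Pcdhgc5 measured 40.7, 13.8, 30.5 and 41.6 RPKM in P28-wt libraries, against 4.54, 9.78, 11.9 and 10.5 RPKM in P10-wt libraries (log2 fold change 1.74, SE 0.37, limma adjusted p = 0.00259). Even P28-wt replicate 2 lay above all 4 P10-wt libraries, and without it the log2 fold change was 2.10. P10-wt replicate 1 had the lowest Pcdhgc5 level, and it was also the library with the lowest Slc17a7 level, 160 RPKM against 308 to 310 RPKM in the other P10-wt libraries. Without P10-wt replicate 1 the Pcdhgc5 log2 fold change was 1.43 (limma adjusted p = 0.00548).

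Pcdhgc4, which in mice is the gamma isoform needed for the survival of neurons, moved the opposite way. It measured 3.99, 1.68, 3.81 and 4.34 RPKM in P28-wt libraries, against 18.6, 18.8, 19.6 and 17.1 RPKM in P10-wt libraries (log2 fold change -2.47, SE 0.25, limma adjusted p = 1.87e-05). This was the largest decrease of any member tested at the pseudocount of 0.1, though at 0.01 that of Pcdha6-g was larger, and it was -2.17 without P28-wt replicate 2. Pcdhgc3, which acts on dendrite growth through Axin1 in mice, measured 21.7, 6.64, 15.2 and 20.9 RPKM in P28-wt libraries, against 32.1, 27.4, 30.2 and 30.2 RPKM in P10-wt libraries (-1.03, SE 0.31, limma adjusted p = 0.0158). Its groups did not overlap, and it fell by 0.65 without P28-wt replicate 2.

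Pcdhac2, which in mice is required for the spacing of serotonergic axons, measured 13.9, 3.07, 8.45 and 12.3 RPKM in P28-wt libraries, against 16.9, 17.4, 18.7 and 18.3 RPKM in P10-wt libraries (log2 fold change -1.11, SE 0.38, limma adjusted p = 0.0272). Groups did not overlap. Without P28-wt replicate 2 the log2 fold change was -0.65 (limma adjusted p = 0.00425). The call was lost without P28-wt replicate 3, P10-wt replicate 3 or P10-wt replicate 4, at limma adjusted p values of 0.0549 to 0.0568 and log2 fold changes of -1.13 to -1.09, and also with no filter on low values (limma adjusted p = 0.05). Pcdhac1 measured 1.74, 0.410, 1.17 and 1.84 RPKM in P28-wt libraries and 1.41, 1.66, 1.32 and 1.52 RPKM in P10-wt libraries (-0.35, SE 0.36, limma adjusted p = 0.427). Its groups overlapped, and without P28-wt replicate 2 the value was 0.07.

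**Figure D4:**
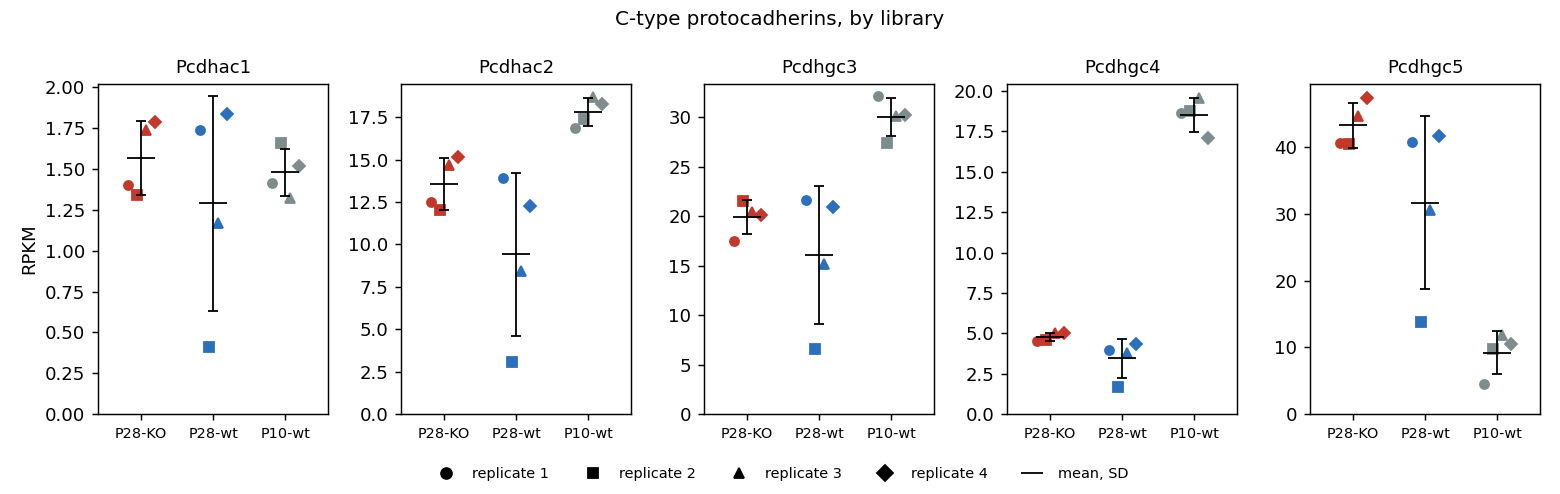
RPKM of the 5 C-type isoforms in every library (points, marker by replicate), with the mean and SD of each group of 4, for P28-KO, P28-wt and P10-wt; each panel has its own axis from 0. Pcdhgc5 is high at P28 and low at P10, Pcdhgc4 is low at P28 and high at P10, and P28-wt replicate 2 is the lowest P28 library in all 5 panels.

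Because a library that is low over a whole cluster shifts all its members together, the shares within each library were set beside the levels. Pcdhgc5 made up 34.9%, 34.2%, 36.1% and 36.2% of the summed gamma level in P28-wt libraries, against 3.06%, 7.21%, 8.06% and 7.59% in P10-wt libraries. P28-wt replicate 2 did not stand apart in this measure. The share of Pcdhgc4 was 3.97% ± 0.477 in P28-wt and 13.0% ± 0.653 in P10-wt, and that of all gamma A isoforms was 32.3% ± 0.821 in P28-wt and 47.2% ± 1.43 in P10-wt (SD, n = 4 each). In the alpha cluster the 2 C-type isoforms made up 48.9% ± 3.37 of the summed level in P28-wt and 33.1% ± 1.12 in P10-wt.

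**Figure D5:**
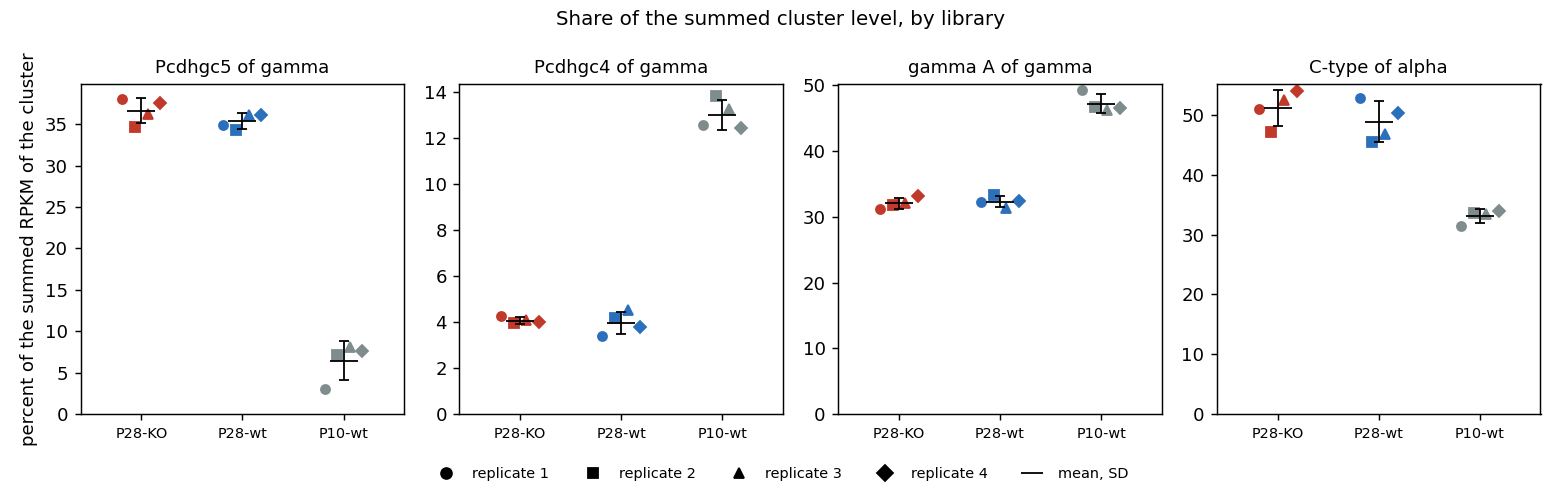
Share of the summed RPKM of the cluster, in percent, taken by Pcdhgc5, by Pcdhgc4 and by the gamma A isoforms in the gamma cluster, and by the C-type isoforms in the alpha cluster, for every library of P28-KO, P28-wt and P10-wt with the mean and SD. Pcdhgc5 takes 34.2% to 36.2% in P28-wt and 3.06% to 8.06% in P10-wt, and P28-wt replicate 2 lies close to the other P28 libraries for the gamma shares.

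The ratio of Pcdhgc5 to Pcdhgc4 was 10.2, 8.21, 8.01 and 9.58 in P28-wt libraries, against 0.244, 0.521, 0.609 and 0.612 in P10-wt libraries. The groups did not overlap (exact permutation test on the log2 ratios, two-sided p = 0.0286, the smallest that 4 libraries against 4 allow, and 0.0571 after Benjamini-Hochberg adjustment over the 4 ratio tests made). The ratio of Pcdhgc5 to Pcdhgc3 was 1.99 ± 0.0814 in P28-wt and 0.310 ± 0.114 in P10-wt (SD, n = 4 each), with the same exact permutation p. Both ratios were picked after the levels were seen. Pcdhgc5 rose, and Pcdhgc4 and Pcdhgc3 fell, without overlap of the age groups. The separation of both ratios with age, and so their p, followed from those levels and adds no separate support. The adjustment over 4 tests does not cover the choice among the members.

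The order of abundance changed with these shifts. In P28-KO the first was Pcdhgc5 at 43.2 RPKM, followed by Pcdhgc3 at 19.9 RPKM and Pcdhac2 at 13.6 RPKM, with ranges that did not overlap. P28-wt had the same first 3, at 31.6 RPKM for Pcdhgc5, 16.1 RPKM for Pcdhgc3 and 9.42 RPKM for Pcdhac2, and their ranges overlapped only through the low values of P28-wt replicate 2. In P10-wt Pcdhgc3 ranked first at 30.0 RPKM, followed by Pcdhgc4 at 18.5 RPKM and Pcdhac2 at 17.8 RPKM, whose ranges overlapped, then Pcdhga11 at 15.0 RPKM and Pcdhgc5 at 9.17 RPKM.

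Between P28-KO and P28-wt no member was called, with or without P28-wt replicates 2 and 3, beside 0% of all genes higher and 0.0144% lower, the 2 genes of the deleted locus. At an unadjusted p under 0.05 limma gave 8 members, all higher in P28-KO, of 54, beside 12.4% of all genes tested in either direction and 4.27% higher. The log2 fold change, P28-KO over P28-wt, was positive in 49 of the 54 members with a median of 0.38, against -0.03 over all genes. The same P28-wt libraries enter both comparisons, so a P28-wt library that is low in a member lowers its age fold change and raises its P28-KO fold change. Without P28-wt replicate 2, 44 members were positive with a median of 0.16 and 3 had an unadjusted p under 0.05, where 3.76% of all genes were higher at that p. Without replicates 2 and 3 the counts were 33 and 1, with a median of 0.05, where 3.04% of all genes were higher.

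The summed levels followed the same course. Alternate alpha isoforms summed to 14.4 ± 0.738 RPKM in P28-KO, against 10.7 ± 4.60 RPKM in P28-wt, or 12.9 RPKM in P28-wt without replicate 2 (SD, n = 4 each). The sum of gamma A was 37.9 ± 3.64 RPKM in P28-KO, against 28.7 ± 11.4 RPKM in P28-wt, or 33.8 RPKM without replicate 2. The C-type sum was 83.1 ± 5.92 RPKM in P28-KO, against 61.9 ± 26.4 RPKM in P28-wt, or 74.0 RPKM without replicate 2. In the beta cluster P28-wt replicate 2 had the lowest sum, 35.3 RPKM, close to the 36.0 RPKM of replicate 3. The beta sum was 41.0 ± 0.616 RPKM in P28-KO and 37.6 ± 2.46 RPKM in P28-wt, or 38.3 RPKM without replicate 2. The median log2 fold change of the 21 beta members tested was 0.14, or 0.08 without replicate 2.

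Pcdhga10 had the smallest p of all members. It measured 1.98, 1.82, 2.31 and 2.62 RPKM in P28-KO libraries, against 1.32, 0.963, 1.30 and 1.59 RPKM in P28-wt libraries (log2 fold change 0.72, SE 0.17, limma adjusted p = 0.382). The groups did not overlap, and the value was 0.60 without P28-wt replicate 2. The other members whose P28-KO libraries all lay above the P28-wt libraries were Pcdhgc4, Pcdhb3 and Pcdhb12, which makes 4 of 54 members, against 1.87% of all genes tested that were higher without overlap and 3.62% that were lower.

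Other members were named by their small unadjusted p. Pcdhb16 had 1.52, 1.05, 1.60 and 1.50 RPKM in P28-KO libraries, against 0.976, 0.884, 0.950 and 1.18 RPKM in P28-wt libraries (log2 fold change 0.46, SE 0.17, limma adjusted p = 0.389). Its groups overlapped at P28-KO replicate 2. Pcdhb12 had 2.93, 3.50, 3.03 and 3.43 RPKM in P28-KO libraries, against 2.72, 2.91, 2.50 and 2.88 RPKM in P28-wt libraries (0.22, SE 0.11, limma adjusted p = 0.420). The alternate alpha isoforms Pcdha10 (0.88, SE 0.37) and Pcdha11 (0.69, SE 0.28), the gamma A isoform Pcdhga11 (0.67, SE 0.30) and the gamma B isoforms Pcdhgb5 (0.63, SE 0.26) and Pcdhgb6 (0.67, SE 0.30) had limma adjusted p values of 0.394 to 0.403. Each moved nearer to 0 without P28-wt replicate 2, to between 0.34 for Pcdhgb6 and 0.50 for Pcdha10.

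Among the C-type isoforms, Pcdhgc5 measured 40.6, 40.4, 44.7 and 47.3 RPKM in P28-KO libraries, against 40.7, 13.8, 30.5 and 41.6 RPKM in P28-wt libraries (log2 fold change 0.57, SE 0.29, limma adjusted p = 0.426). The groups overlapped, and the value was 0.21 without P28-wt replicate 2. The ratio of Pcdhgc5 to Pcdhgc4 was 9.00 ± 0.290 in P28-KO and 9.00 ± 1.07 in P28-wt (SD, n = 4 each, exact permutation test, two-sided p = 0.914). The share of Pcdhgc5 in the summed gamma level was 36.6% ± 1.52 in P28-KO and 35.3% ± 0.955 in P28-wt.

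The regularized test called 6 alpha and 10 gamma members higher in P28-KO and no beta member, where it called 4.67% of all genes higher and 6.94% lower. Without P28-wt replicate 2 it called 2 gamma members higher, Pcdhga10 and Pcdhga11, and 2 alpha members lower, the short entries Pcdha6-g and Pcdha7-g, beside 3.94% of all genes higher and 6.9% lower.

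The 3p strands of the microRNAs deleted in P28-KO share their seed, the bases at positions 2 to 8 that pair with target messenger RNAs, and the 5p strands each have another. The mature strands are shown because a match to a seed is the letter pattern by which a direct target is usually searched for. They come from RefSeq on GRCm38.p6, where miR-132-3p lies at chr11:75173723-75173744, miR-212-3p at chr11:75173443-75173464, miR-132-5p at chr11:75173686-75173707 and miR-212-5p at chr11:75173403-75173425, all on the plus strand, and capitals mark the seed.
miR-132-3p: uAACAGUCuacagccauggucg
miR-212-3p: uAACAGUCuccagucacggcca
miR-132-5p: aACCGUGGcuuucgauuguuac
miR-212-5p: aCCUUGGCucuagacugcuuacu
The sites searched were GACTGTT for the 3p strands, CCACGGT for miR-132-5p and GCCAAGG for miR-212-5p, each the reverse complement of the seed, on the sense strand of the longest RefSeq 3′ UTR of each gene. A 3′ UTR was found for 11 alpha, 20 beta and 21 gamma members, and none of the 52 held the 3p site, while 12.2% of the 12532 genes tested with a 3′ UTR did. None held the miR-132-5p site either, beside 3.2% of those genes. The miR-212-5p site was in the 3′ UTR of all 11 alpha members, 1 time each, and of no beta or gamma member, beside 12.2% of those genes. Median 3′ UTR length was 2401 bases in alpha, 883 in beta and 1741 in gamma members, against 1101.5 bases in those genes. A longer 3′ UTR is more likely to hold a given site, and the shares were not matched for length. The 3p site and the miR-212-5p site were each in 1534 genes, of which 258 held both. The 3′ UTR is nearly the same for the 11 alpha members searched, and again for the 21 gamma members searched. These are therefore far fewer than 52 separate sequences. A match is a description and not a shown target, and the absence of these letters says nothing of other kinds of site.

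Genes that work with the clustered protocadherins were read from the same fit. Of 18 genes for the architecture of the locus and the choice of promoters, 12 fell with age and none rose, with a median log2 fold change of -0.44, beside 31.2% of all genes falling and 26.7% rising, the shares against which the next lists stand too. They included Dnmt3a, a DNA methyltransferase, at 15.1 ± 0.253 RPKM in P28-wt and 33.9 ± 5.30 RPKM in P10-wt (log2 fold change -1.15), the cohesin subunit gene Stag2 (-0.54) and the cohesin loader gene Nipbl (-0.62). Of 17 partners and signalling genes 4 rose and 7 fell. Ptk2b, a kinase bound by alpha and gamma protocadherins, rose by 1.37 on the log2 scale, and Cyfip2, a subunit of the WAVE complex, rose by 0.93, while Marcks fell by 1.47. Of the 7 genes of membrane cleavage, 1 rose and 2 fell, among them the protease Adam10 (-0.76). Of 10 solitary delta protocadherins, which lie outside the clusters, 5 fell and 1 rose, with Pcdh19 at 3.68 ± 0.837 RPKM in P28-wt and 11.6 ± 1.62 RPKM in P10-wt (-1.65). The age counts of these lists were not taken without P28-wt replicate 2. No gene of these lists was called between P28-KO and P28-wt.

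Cell type markers moved in the same libraries. All 8 markers of immature neurons fell with age, with summed levels of 242 to 275 RPKM in P28-wt and 1791 to 2922 RPKM in P10-wt libraries, and all 8 of oligodendrocytes rose, with 1857 to 2619 RPKM in P28-wt and 36.4 to 124 RPKM in P10-wt libraries. Of the 6 general neuronal markers 3 rose and 2 fell, with 2030 to 2263 RPKM in P28-wt and 1689 to 1839 RPKM in P10-wt libraries. The 5 choroid plexus markers summed to 1.79 to 2.74 RPKM in P28-wt and 4.24 to 5.78 RPKM in P10-wt libraries, and of the 3 tested 1 rose and 2 fell. Of the 4 markers of meninges and vessel wall 1 rose and 3 fell, with 32.5 to 39.2 RPKM in P28-wt and 36.5 to 52.8 RPKM in P10-wt libraries. Of the 3 thalamic markers 2 fell, with 8.65 to 10.8 RPKM in P28-wt and 17.8 to 28.6 RPKM in P10-wt libraries, among them Slc17a6, a vesicular glutamate transporter, at 5.26 RPKM in P28-wt and 15.8 RPKM in P10-wt. Of the 4 endothelial markers 2 fell. In tissue of many cell types a lower level can be fewer expressing cells or less RNA per cell, and the 2 cannot be told apart here. The part of these cell types in the protocadherin results was not tested. Taf7, a gene between the beta and gamma clusters, measured 2.06, 2.81, 2.26 and 1.81 RPKM in P28-wt libraries, with replicate 2 the highest, against 2.98 to 3.45 RPKM in P10-wt libraries.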

How the data were processed

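The authors prepared TruSeq v2 libraries from visual cortex RNA, sequenced paired reads, aligned them to mm10 with ELAND using RefSeq exons and splice junctions, kept uniquely aligned reads and deposited RPKM values (reads scaled to model length and mapped reads) for 12 mRNA libraries. The submitters' processing notes also name CASAVA 1.8.2, Bowtie 0.12.8 and SAMtools 0.1.19. Keeping only unique reads can lower entries that share sequence with a close paralogue. The deposited RPKM table holds no read counts, so no count model was used. The read number that the study states for its libraries was not used, and the counting error of single entries was not computed. The 12 small RNA samples were not analysed here.

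Entries with a mean of at least 0.5 RPKM over the 12 libraries entered the test. Each comparison was fitted with only its own 8 libraries, in limma 3.58.1 (R 4.3.3, trend on mean level) after a log2(RPKM + 0.1) transform, with Benjamini-Hochberg adjustment over all 13927 entries and calls at an adjusted p under 0.05. Fold changes on this scale understate the change of low genes. The fit was tested on simulated data. Sums, shares and ratios were taken per library with pandas 2.3.3 in Python 3.11.15. Listed spans were matched to RefSeq models on GRCm38 for 22499 entries.

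Named members were the 5 C-type isoforms, in each other subgroup the 3 called members with the largest fold change in each direction, the most and the least abundant member, the members nearest to the filter and, for P28-KO, the 2 with the smallest p per subgroup. From each gene list up to 4 genes with the smallest p could be named. Others (Pcdhb3, Pcdhb10, Pcdhb21 and the members not called) were named after their values were seen. Members and lists were chosen with earlier results of these data known. Alternatives were the pseudocount (0.01 and 1), no filter or a mean of 2 RPKM, median-ratio and quantile scaling, all 12 libraries in 1 fit, a regularized test (window of 101 genes, confidence 10) and leaving out each library. The replicate block and the fits without P28-wt replicates 2 and 3, or with the regularized test and without replicate 2, were added after seeing the data. The seeds of the 5p strands were searched after the result for the 3p seed was seen.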

Additional observations from a re-analysis of the deposited data

Results flagged for a closer look

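A library lay far from the other 3 of its group in 2 of the 99 sets of 4 values examined, and chance alone gives about 1 in 20. Pcdhb19 measured 2.66 RPKM in P10-wt replicate 3, against 2.07 to 2.14 RPKM in the other P10-wt libraries. Pcdhga9 measured 3.53 RPKM in P10-wt replicate 1, against 2.03 to 2.25 RPKM in the others, and its age call was lost without that library (log2 fold change -0.73, limma adjusted p = 0.0592).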

How the results depend on the processing

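The direction of every called member named above was kept under all alternatives run. With age, a filter at a mean of 2 RPKM tests fewer members and left 5 alpha and 4 beta members falling. The alpha and beta members no longer called had means under 2 RPKM and were not tested there. The regularized test had 17 beta members falling, beside 39.4% of all genes. Between P28-KO and P28-wt that test called 6 alpha and 10 gamma members higher, and without P28-wt replicate 2 it called 2 gamma members higher and 2 alpha members lower. The summed beta level in P28-KO was 42.0 RPKM after median-ratio scaling, and the cause was not tested. Leaving out 1 library at a time gave 10 to 11 alpha, 8 to 12 beta and 15 to 18 gamma members falling with age, 1 gamma member rising, and 0 members called between P28-KO and P28-wt. In the main age fit 31.2% of all genes fell and 26.7% rose. Among the named members Pcdhac2, Pcdhb2 and Pcdhga9 lost their age call in some of the alternative fits. Scaling moved the median of all genes by under 0.05 on the log2 scale.

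Whether the numbers 1 to 4 in the column names pair the libraries is not stated in the sources used here. The correlations of same-numbered deviations ran from -0.049 to 0.114 for age and from -0.091 to 0.281 for P28-KO. With 4 libraries per group they cannot exclude a shared litter or batch. With the numbers as a replicate block, 11 alpha, 12 beta and 18 gamma members fell and 1 gamma member rose with age, and 0 members were called between P28-KO and P28-wt. The short listed spans of Pcdha6-g and Pcdha7-g limit the precision of their levels.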
